A study of Mus musculus with 15 samples.

Results

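Exc_25 is a cluster of excitatory neurons of the mouse prefrontal cortex (PFC). Its members are the cells that carry this cluster name in the deposited cell table, 1384 cells of 20377 in 26 excitatory clusters and of 35360 retained cells in all, which makes it the cluster with the most cells among the 26. The cells come from single-cell RNA sequencing of male C57BL/6N mice, in which every mRNA molecule is tagged with a unique molecular identifier (UMI) and the number of UMIs counts molecules. Adult mice, of 8 to 10 weeks in the labels and P60 (postnatal day 60) in the methods, had pressed for intravenous cocaine or saline. They gave 12 libraries, 2 for each of 6 groups: saline or cocaine at the end of maintenance, after 48 h of withdrawal and after 15 days of withdrawal. Another 3 libraries came from mice of 3 weeks (P21), for which the labels name no self-administration phase. Exc_25 numbered 1025 cells at P60 and 359 at P21. The P60 libraries each hold the pooled tissue of 2 mice, and the methods give 4 mice for the 3 libraries of P21, so the division of those mice is not known.

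Cortical excitatory neurons release glutamate and differ by layer and by the target of their axons. Intratelencephalic neurons lie in every layer below the first and send axons to other cortical areas and to the striatum, in both hemispheres. Extratelencephalic neurons of layer 5 reach the midbrain, brainstem and spinal cord, and corticothalamic neurons of layer 6 reach the thalamus. The mouse PFC has no layer 4, so layer 5 lies directly beneath layer 2/3.

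Retained cells of a library held 8375172 to 42892922 UMIs, and Exc_25 numbered 16 (library 2) to 242 cells (library 9) in a library. Tissue is given as the nucleus accumbens by one label and as the PFC by titles and methods. The excitatory markers below are those of cortex. Of the Exc_25 cells, 16 (15 of them at P21) are filed in another class than excitatory neurons, and 62 carry a barcode that is also retained in another library, 3 barcodes being Exc_25 in more than 1 library. Some libraries stood apart within their groups. The Exc_25 cells of P21 library 1 held more oligodendrocyte RNA. Their summed level of 5 oligodendrocyte markers was 1095 CPM (counts of UMIs scaled to the same total in every library). It was 197 and 154 CPM in Exc_25 of the other P21 libraries and 87.3 to 185 CPM at P60. In the other excitatory cells of the P21 libraries the same sum was 286 to 530 CPM. Libraries 9, 10 and 12 differed from the rest of P60 for a set of genes that includes Cck, the peptide cholecystokinin. Its level in Exc_25 was 3841, 3423 and 1841 CPM in these 3, and 456 to 1063 CPM in the other 9 P60 libraries. It was 5365, 2277 and 1729 CPM at P21.

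Exc_25 was a class of cortical neurons with transcripts of layer 5 intratelencephalic cells and almost none of layer 2/3. Levels are UMIs summed over the Exc_25 cells of a library and given as CPM without mitochondrial and ribosomal protein genes, and ratios to the summed cells of the 25 other excitatory clusters were taken within each P60 library. These levels describe the cluster and carry no test, because its cells were grouped by the same genes. All 7 excitatory markers were above 20 CPM, with a median log2 ratio to the other clusters of 0.17. Slc17a7, the vesicular glutamate transporter VGLUT1, was at 441 to 898 CPM (median 571) in the 12 libraries, and its mean of 582 ± 122 CPM (SD, n = 12) was the highest of the 26 clusters. The inhibitory markers Gad1 and Gad2, which make GABA, were at no more than 2.32 and 2.46 CPM in a P60 library.

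All 6 markers of layer 5 intratelencephalic neurons were above 20 CPM, and 5 of them exceeded the other excitatory clusters by more than 1 on the log2 scale. Across all 6232 genes with a mean of at least 20 CPM in Exc_25 or in the other clusters, the limit used for every list below, 49 did so and 108 lay below the other clusters by the same margin, with a median log2 ratio of -0.03. Etv1, an ETS family transcription factor typical of layer 5 (chromosome 12: 39505967 to 39594802 in NCBIM37), was at 224 to 410 CPM (median 259) against a mean of 77.4 CPM in the other clusters. Deptor, an inhibitor of the mTOR kinase (chromosome 15: 54943872 to 55090826), was at 83.1 to 149 CPM (median 114) against 32.2 CPM. Il1rapl2, a synaptic adhesion protein related to the interleukin-1 receptor (chromosome X: 134105147 to 135381485), was at 15.3 to 29.1 CPM against 6.04 CPM. These genes were above the other clusters in all 12 libraries. Neither Etv1 nor Deptor set the cluster apart alone, since Etv1 was higher in Exc_21 (705 CPM) and Deptor and Il1rapl2 were higher in Exc_22 (208 and 32.9 CPM).

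Scube1, a secreted EGF-domain protein (chromosome 15: 83433013 to 83555451), was at 20.8 to 88.2 CPM (median 48.1) against 14.6 CPM, the highest mean of the 26 clusters. Its log2 ratio of 1.64 was 0.83 when every cell was thinned to 2000 UMIs. Parm1, a transmembrane mucin, had a log2 ratio of 1.01. Rorb, the nuclear receptor that marks layer 4 and upper layer 5, was the exception of the list, with 17.0 to 110 CPM and a log2 ratio of -0.07.

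The layer 2/3 markers were low or absent. Cux2, a homeobox factor of upper layer neurons, was at 0 to 6.55 CPM against a mean of 58.5 CPM elsewhere, a log2 ratio of -4.98. Calb1, the calcium buffer calbindin, was at 0 to 7.77 CPM against 95.2 CPM, and Rasgrf2, an exchange factor for Ras, had a log2 ratio of -2.27. Lpl and Otof, also upper layer markers, did not exceed 1.18 CPM in a library. Pou3f1, a marker of extratelencephalic neurons, did not exceed 0.82 CPM, while Fezf2, the factor that specifies those neurons, was at 33.9 to 92.4 CPM and ranked the 7th of 26 clusters. Tshz2, of near-projecting neurons, was at 0 to 8.49 CPM against 82.5 CPM. Among corticothalamic markers, Rprm, a cell cycle arrest gene, was at 141 to 297 CPM, far below the 2212 CPM of Exc_19, and Syt6 did not exceed 1.78 CPM.

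**Figure D1:**
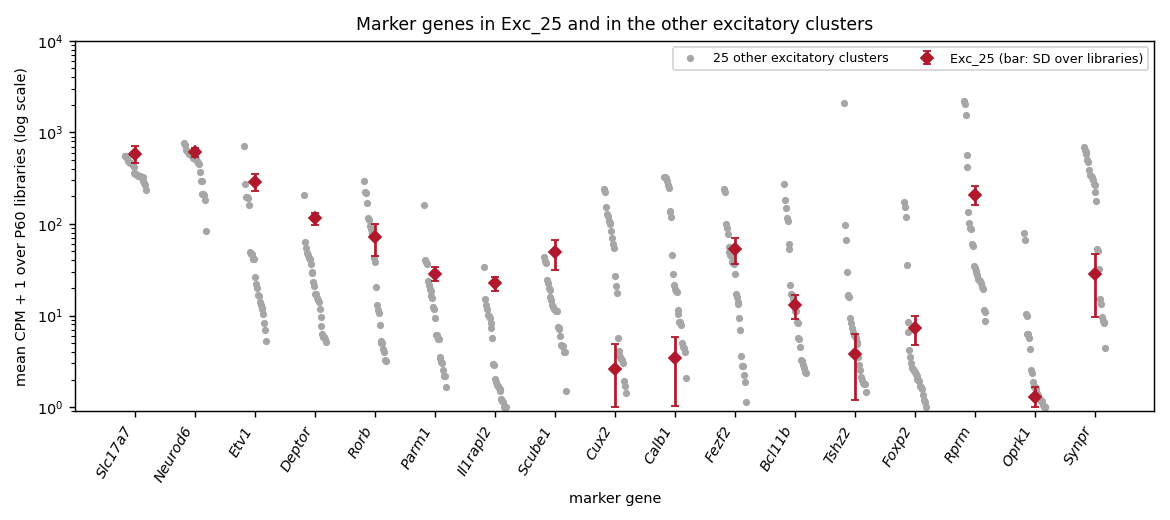
Mean level (CPM + 1, log axis) of marker genes over P60 libraries in Exc_25 (red diamonds, bars are the SD over 12 libraries, cut at 0 CPM) and in each of the 25 other excitatory clusters (grey points). Etv1, Deptor, Il1rapl2 and Scube1 lie at or near the top of the clusters in Exc_25, and Cux2 and Calb1 near the bottom, at means of 1.58 and 2.45 CPM.

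Single cells showed the same markers. At P60, 87.2% of the Exc_25 cells had an Etv1 UMI and 82.1% a Deptor UMI. Endothelial cells had them in 13.2% and 2.22% of cells, at a median of 3870 UMIs per cell against 19435 in Exc_25. After thinning to 2000 UMIs the shares were 36.2% against 6.30% for Etv1 and 22.0% against 0.76% for Deptor. For Etv1 the endothelial share is no measure of free RNA, since Slc17a7, at a higher level in neurons, was found in 5.20% of thinned endothelial cells, fewer than Etv1. For Cux2, 0.20% of thinned Exc_25 cells had a UMI, below the 0.65% of endothelial cells. That share did not exceed the one in a non-neuronal class, and the level of free RNA was not measured.

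Beyond the marker lists, 1265 genes passed the limits set for leading genes, which were a mean of at least 20 CPM in Exc_25 or in the other clusters and the same sign in all 12 libraries. Of these, 46 lay above the other excitatory cells by more than 1 on the log2 scale and 104 below. The gene with the highest ratio was S100b, a calcium-binding protein best known from astrocytes, at 150 to 262 CPM (median 183) against 36.7 CPM, a log2 ratio of 2.36 ± 0.34 (SD, n = 12). The summed level of 5 astrocyte markers was 76.9 to 167 CPM in Exc_25 and 61.7 to 144 CPM in the other excitatory cells of the same libraries. Nearly all of it was Aldoc (mean 109 CPM in Exc_25), which was at 390 CPM in Exc_21, and Gja1, Aqp4, Gfap and Slc1a3 had means of 0.19 to 4.24 CPM, while the 2 mature oligodendrocyte markers above 20 CPM, both genes of myelin, had log2 ratios of 0.51 and 0.69. The part of these cells, which also express S100b, in its level was not tested. In Exc_15 the mean level of S100b was higher than in Exc_25, at 250 ± 38.1 CPM (SD, n = 8).

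Tmem91, which codes for a membrane protein, was at 173 to 286 CPM against 64.3 CPM, the highest mean of all clusters. Timp2, an inhibitor of matrix metalloproteinases, was also highest in Exc_25, at 164 to 348 CPM against 86.2 CPM. Utrn, the dystrophin relative utrophin, had a log2 ratio of 1.87 at a low level of 14.6 to 32.1 CPM. Sstr2, a receptor for somatostatin, was at 52.0 to 85.1 CPM against 21.5 CPM. Dner, a Notch ligand of neurons, was at 95.9 to 170 CPM against 37.4 CPM. The remaining leading genes were Thrsp, a regulator of lipid synthesis, BC048546, the syntaxin-binding gene Stxbp6, the long noncoding RNA Gm2694 and Nell1, a secreted protein, with log2 ratios of 1.51 to 1.77.

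The lowest ratios, after Calb1, Cux2 and Tshz2, belonged to Ddit4l, an inhibitor of mTOR signalling (-4.53), Zcchc12 (-4.33) and Penk, the precursor of the enkephalins (-4.14). Lypd1, which binds nicotinic receptors, Synpr, the synaptic vesicle protein synaptoporin, Tcap, a titin-binding protein, and Igfbp4, which binds insulin-like growth factors, followed at -3.75 to -3.49. On thinning to 2000 UMIs the ratios of Calb1 and Tshz2 were -6.07 and -6.09. Synpr was at 0 to 56.4 CPM (median 28.0) against 260 CPM. Its UMIs came from few cells: in library 9, 48 of 242 cells held its 208 UMIs. At P21, all 25 leading genes kept their sign, with log2 ratios of 1.00 to 2.27 for the higher and -4.23 to -2.29 for the lower ones. The study named P21 cells by their match to P60 clusters, so the kept signs are no independent evidence.

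**Figure D2:**
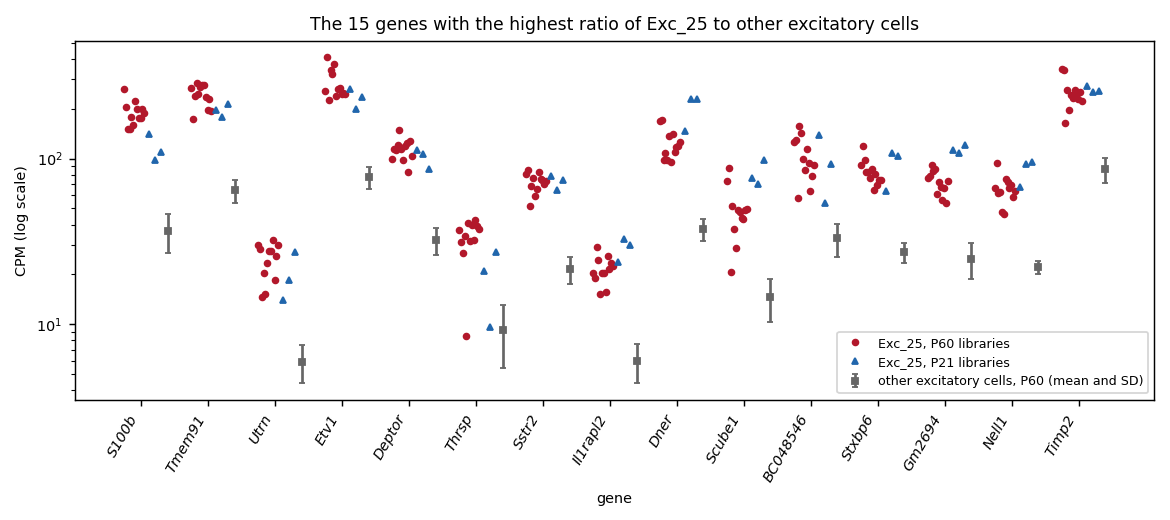
Level (CPM, log axis) of the 15 genes with the highest ratio to the other excitatory cells. Each red point is Exc_25 in a P60 library, each blue triangle Exc_25 in a P21 library, and grey squares give the mean and SD of the other excitatory cells at P60. S100b stands at 150 to 262 CPM against a mean of 36.7 CPM.

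The clusters most like Exc_25, by Pearson correlation of mean log2 levels across genes over the P60 libraries they share, were Exc_22 (r = 0.994, 9 libraries), Exc_15 (r = 0.992, 8 libraries) and Exc_14 (r = 0.991, 12 libraries). Genes are not independent replicates, and these values only order the clusters. Exc_25 and Exc_22 shared Deptor, Tmem91 and Sstr2. The largest ratio between them was that of Synpr, at 28.5 CPM in Exc_25 and 3.36 CPM in Exc_22 (log2 ratio 2.90, 9 of 9 libraries). They also differed in Nav1, a guidance factor for growing axons, at 43.2 ± 13.9 CPM in Exc_25 and 6.33 ± 4.28 CPM in Exc_22 (SD, n = 9). The symbol Nav1 is repeated among the listed genes, and these values are those of a single entry. Nov, a matricellular growth factor of the CCN family, was at 44.3 against 8.96 CPM, and Maob, monoamine oxidase B, at 23.5 against 5.37 CPM. Exc_22 was higher for Incenp, a chromosomal passenger protein, at 112 against 37.7 CPM, for Myl4, a myosin light chain, at 467 against 179 CPM, and for Olfm3, an olfactomedin, at 48.2 against 12.6 CPM.

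Rprm separated Exc_25 from the other near clusters, at 221 CPM against 10.5 CPM in Exc_15 and 208 against 9.86 CPM in Exc_14. Against Exc_15, Exc_25 was also higher for Nnat, the imprinted gene neuronatin, with a log2 ratio of 3.99, and for Ctsz, a lysosomal protease, with 3.29. It was lower for Synpr, at 30.3 against 338 CPM, and for Lypd1, at 5.82 against 75.5 CPM. Against Exc_14, Stxbp6 was at 83.4 against 1.56 CPM and Grp, gastrin-releasing peptide, at 108 against 11.7 CPM. Cdh13, a cadherin without a transmembrane part, was higher in Exc_14 at 222 against 14.5 CPM, as was Cd24a, a surface glycoprotein of immature neurons, at 39.5 against 0.65 CPM.

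The genes for signalling in Exc_25 were mostly at the level of the other excitatory cells, with a few that stood out. Of 13 glutamate receptor genes above 20 CPM, 1 passed a log2 ratio of 1 and the median was -0.14. That gene was Grik3, a kainate receptor subunit, at 38.2 to 70.9 CPM against 20.8 CPM, and the presynaptic receptor Grm8 followed with a log2 ratio of 0.87. Among 11 GABA-A receptor subunits, Gabrd, the subunit of receptors outside the synapse, was the one that lay low, with 14.6 to 34.0 CPM against 69.6 CPM. Of 30 potassium channel genes, Kcng1, a silent subunit that modifies Kv2 channels, was higher (1.07) and Kcnip2, an auxiliary subunit of Kv4 channels, lower (-2.62). None of 13 sodium and calcium channel genes passed the margin in either direction.

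Of 8 peptide genes within the limit of 20 CPM, 4 lay below -1 and 1 above 1, with a median log2 ratio of -0.84. Members such as Penk passed it only through the other clusters. Npy, neuropeptide Y, was at 0 to 26.0 CPM against 50.7 CPM, Scg2, a secretory granule protein, at 49.2 to 139 CPM against 281 CPM, and Adcyap1, the precursor of PACAP, at 6.79 to 22.1 CPM against 34.5 CPM. Rspo2, a secreted enhancer of Wnt signalling, was the only member above 1, at 44.1 to 70.7 CPM against 29.0 CPM. Of the vesicle release genes, 22 were above 20 CPM with a median of 0.32. The complexins, which clamp vesicle fusion, went in different directions: Cplx1 was at 161 against 86.6 CPM and Cplx2 at 108 against 262 CPM. Cnr1, the cannabinoid receptor CB1, was at 162 to 265 CPM against 127 CPM.

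Of 6 cadherins, 2 lay below -1, Cdh13 (-2.81) and Cdh8 (-1.71), with a median of -0.35. Of 15 axon guidance genes, 1 did, Efnb3 (-1.44), an ephrin that repels axons, with a median of 0.005. The 81 nuclear genes of the respiratory chain were at the common level, from -0.22 to 0.21 with a median of 0.02. Immediate early genes had a median of -0.13 over 10 genes, and Btg2, an antiproliferative factor, was the only 1 of them below -1.

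Exc_25 cells were large in RNA content. The median was 19134 UMIs per cell (lowest 2576, highest 51245) and 4716.5 detected genes, the third and the second of the 26 clusters. Only Exc_22 (19225 UMIs) and Exc_15 (19161 UMIs) had more UMIs. In every library the median of Exc_25 was above that of the other excitatory cells, for example 28444.5 against 15899.5 UMIs in library 8. Of the Exc_25 cells, 666 (48.1%) detected more genes than the upper limit that the methods give for likely doublets, against 10.6% of the other excitatory cells, and the part of doublets in the levels was not tested. Exc_15 and Exc_22 were of like depth, with medians of 4748 and 4592 detected genes, and their own shares above the limit were not counted. Genes detected per cell and shares of cells with a UMI rise with this depth.

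The share of UMIs from mitochondrial genes, which by the methods were left out when the clusters were made, was 2.79 ± 0.299% in Exc_25 and 2.59 ± 0.131% in the other excitatory cells (SD, n = 12). It was higher in Exc_25 in 10 of 12 libraries, by 0.201 percentage points on average (exact two-sided sign-change permutation test over 4096 patterns, p = 0.0112). With the other clusters weighted equally the difference was 0.188 (8 of 12 libraries, exact p = 0.0376). At P21 all 3 libraries had the same direction, with differences of 0.469 to 0.836. Ribosomal protein genes took 5.85% of UMIs in Exc_25 and 5.90% elsewhere at P60. The difference of -0.0541 did not pass the test (8 of 12 libraries, exact permutation p = 0.0908). At P21 the difference was -0.508 to -0.430, lower in Exc_25 in all 3 libraries.

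Exc_25 made up 4.10% to 9.24% of the excitatory cells of a P60 library. At maintenance the cocaine libraries had 6.32% and 6.77% and the saline libraries 4.98% and 4.10%. At 48 h of withdrawal the cocaine libraries had 6.73% and 7.88% and the saline libraries 4.53% and 4.72%. At 15 days the cocaine libraries had 9.24% and 5.45% and the saline libraries 8.54% and 8.18%. Cocaine libraries were thus above saline libraries at the first time points without overlap, but not at 15 days, where the saline values lay between the cocaine values. Over all time points the means were 7.06 ± 1.32% for cocaine and 5.84 ± 1.98% for saline (SD, n = 6 each), a difference of 1.22 points that did not pass an exact two-sided permutation test within time points (p = 0.176, 216 regroupings, smallest possible p 0.00926). The P21 libraries had 6.53%, 5.75% and 5.67%, within the range of the 6 P60 saline libraries. Their mean was 5.98 ± 0.475% (SD, n = 3), and P60 saline minus P21 was -0.139 points (exact permutation p = 0.940, 84 splits, smallest possible p 0.0119). The sign turned with all P60 libraries (0.471) and without library 2, 3, 5 or 7 or P21 library 1. A share can change through the number of Exc_25 cells or through that of other cells recovered from the tissue, which cannot be told apart here.

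**Figure D3:**
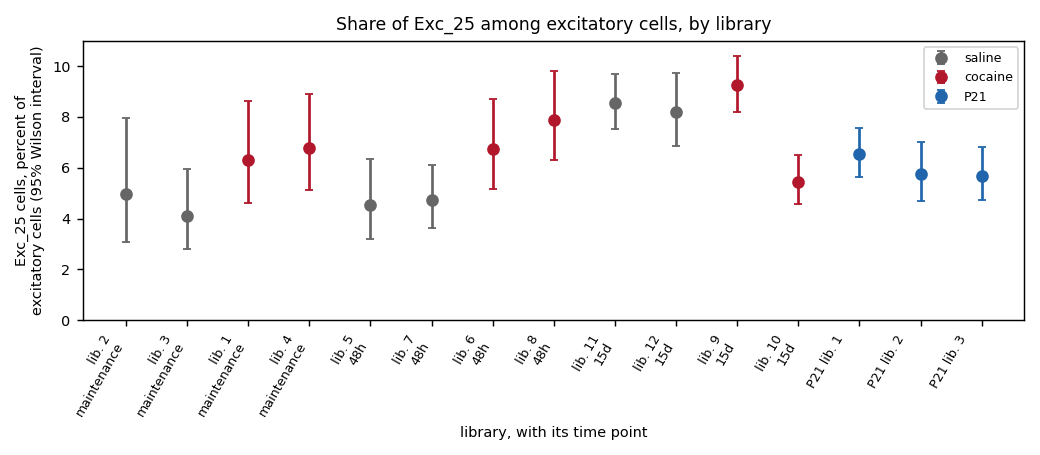
Share of Exc_25 among the excitatory cells of each library (percent, bars are 95% Wilson intervals, which cover counting error only), for saline (grey), cocaine (red) and P21 (blue) libraries in the order of their time points. Both cocaine libraries lie above both saline libraries at maintenance and at 48 h, and the libraries overlap at 15 days.

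Between P21 and P60, members of the axon growth and immediate early gene lists fell in Exc_25, and members of the respiratory chain list rose. The 6 saline libraries were compared with the 3 P21 libraries by edgeR on summed UMIs, and genes were called where they changed by more than 1.5-fold with a p, adjusted after Benjamini and Hochberg, under 0.05. Of 8868 genes tested, 854 (9.63%) were higher and 970 (10.9%) lower at P60, and 3703 had an unadjusted p below 0.05. Of the called genes, 1135 had libraries that did not overlap between the ages, 476 of them higher and 659 lower at P60, while 21.3% of all tested genes did not overlap. Any difference in preparation between the ages cannot be told apart from age. Nor can the food training, catheter surgery and saline self-administration that the methods give for the P60 saline mice. P21 cells took their cluster names from the study's match to P60 clusters.

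Cd24a, the surface glycoprotein named above (chromosome 10: 43298975 to 43304068), fell the most. It was at 37.0, 80.2 and 87.8 CPM in the P21 libraries and at 0 to 2.12 CPM (median 1.06) in the saline P60 libraries, a log2 change of -5.29 ± 0.36 (SE, edgeR adjusted p = 8.31e-10). The P60 value rests on few UMIs, and the fitted change of such a gene depends on the method's small added count. Marcksl1, which binds actin and calmodulin in growing neurites, fell from 317, 427 and 371 CPM to 11.9 to 72.5 CPM (median 39.0), a log2 change of -3.13 ± 0.20 (SE). Hist1h2bc, a histone H2B gene, fell from 77.2, 111 and 105 CPM to 5.09 to 12.7 CPM (median 8.94), by 3.16 on the log2 scale. Marcksl1 was the most abundant of these genes at both ages.

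Nnat fell from 166, 448 and 425 CPM to 15.1 to 112 CPM, Ddah1, which breaks down inhibitors of nitric oxide synthase, from 23.1, 30.8 and 43.9 CPM to 1.70 to 10.4 CPM, and Cbln2, an organizer of synapses, from 29.8, 27.3 and 21.03 CPM to 0 to 8.88 CPM. Dmkn, the secreted protein dermokine, fell from 9.15, 16.7 and 12.8 CPM to 0 to 6.24 CPM. Gm1673 and H2afj, a histone H2A variant, were also among the 10 largest falls, but 1 library carried them. Gm1673 was at 329, 38.8 and 43.0 CPM and H2afj at 150, 22.0 and 15.5 CPM in P21 libraries 1, 2 and 3, against 8.50 to 34.4 and 8.49 to 14.6 CPM in the saline libraries. In Exc_25, P21 library 1 had the most oligodendrocyte RNA and also the highest Cck level. Gm1673 was also high in the P60 libraries with high Cck, at 75.7, 56.5 and 34.4 CPM in libraries 9, 10 and 12 against 8.50 to 24.5 CPM in the other P60 libraries. The part of either in these changes was not tested.

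Of the genes that rose, Ass1, argininosuccinate synthase (chromosome 2: 31325727 to 31376192), went from 14.7, 7.05 and 13.7 CPM to 53.6 to 134 CPM (median 110), a log2 change of 3.23 ± 0.24 (SE, edgeR adjusted p = 1.41e-09). Gstt1, a glutathione transferase, went from 5.57, 3.52 and 6.40 CPM to 20.8 to 37.3 CPM (median 32.3), by 2.69. Tnnt2, the heart isoform of troponin T, went from 9.15, 11.5 and 11.9 CPM to 28.4 to 68.4 CPM (median 43.7), by 2.25. The rule for named genes asked for libraries without overlap, so that the gaps between the ages follow from it.

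Myh14, a nonmuscle myosin heavy chain, had the largest fitted rise (3.27 ± 0.56, SE) at a low level, from at most 1.19 CPM to 4.44 to 12.6 CPM. The immune genes H2-T22, a nonclassical MHC class I gene, and Bst2, the antiviral protein tetherin, rose by 2.56 and 2.46 to medians of 19.1 and 10.2 CPM. The transcription regulators Tle6 (2.61), Dach1 (2.30) and Hsf4 (2.20) and the gene Fhad1 (2.13) made up the 10 largest rises. Of the cluster's leading genes, S100b rose from 140, 97.8 and 110 CPM to 152 to 222 CPM, by 0.81, and Thrsp was called with the same log2 change of 0.81. Dner and Scube1 fell by 0.68 and 0.67, and Scube1 was the 1 called of 6 layer 5 intratelencephalic markers, where 9.63% of all tested genes were higher and 10.9% lower.

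**Figure D4:**
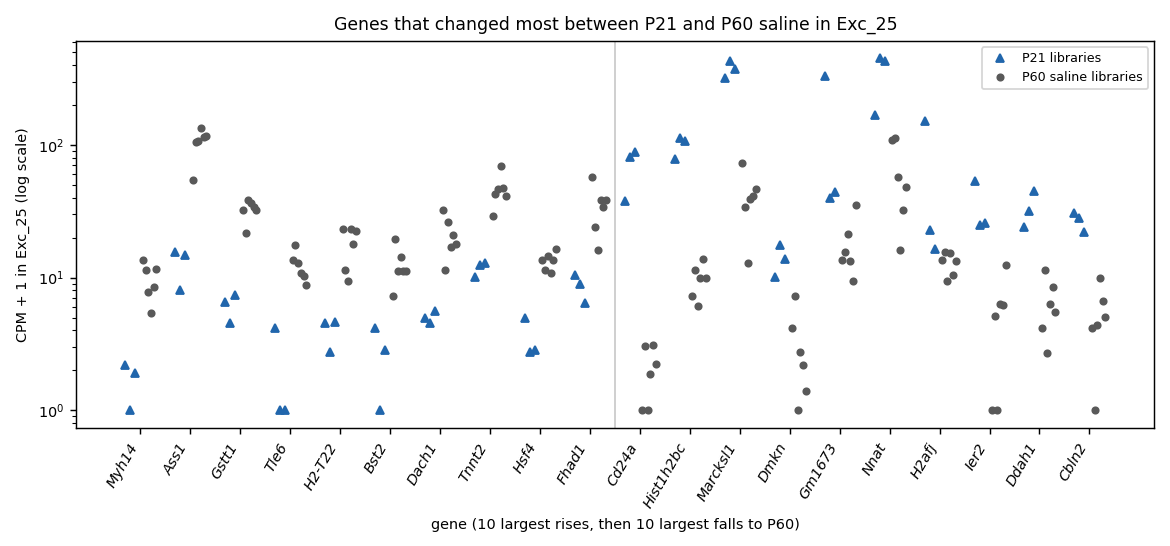
Level in Exc_25 (CPM + 1, log axis) of the 10 largest rises and the 10 largest falls from P21 to P60 saline, for each P21 library (blue triangles) and each P60 saline library (grey points). For Cd24a the P21 libraries lie at 37.0 to 87.8 CPM and the saline libraries at no more than 2.12 CPM, and for Ass1 the saline libraries lie at 53.6 to 134 CPM.

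Of 14 genes of axon growth and the immature cytoskeleton tested, 5 were called lower and 0 higher, beside 10.9% and 9.63% of all genes, with a median log2 change of -0.33 against -0.02 over all genes. Beside Cd24a and Marcksl1 these were Dpysl5 (-1.63), a collapsin response mediator, Tubb2b (-1.48), a beta-tubulin of migrating neurons, and Marcks (-0.86). Tubb2b was at 58.9, 60.8 and 72.2 CPM at P21 and at 8.49 to 29.5 CPM in the saline libraries. Gap43, the growth-associated protein of axon terminals, was at 1491, 2163 and 2544 CPM at P21 and at 1219 to 1875 CPM in the 12 P60 libraries. Among axon guidance genes, 6 of 27 were called lower and 0 higher (median -0.37), including Sema3a (-1.46), a repellent for axons, Efnb3 (-1.29) and the ephrin receptor Ephb1 (-0.97). Of 8 cadherins, Cdh2 (-0.70), Cdh11 (-0.72) and Cdh13 (-0.91) were called lower.

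Immediate early genes, which neurons switch on within minutes of activity or stress, were lower at P60 for 10 of 16 tested and higher for 0, with a median of -0.79. Junb was at 171, 152 and 142 CPM at P21 and at 20.4 to 76.5 CPM (median 40.3) in the saline libraries, by -1.75. Fos was at 129, 127 and 150 CPM at P21 and at 36.4 to 101 CPM (median 56.6), by -0.88. Ier2 (-2.44), Dusp1 (-1.50), a phosphatase that ends MAP kinase signalling, and Nr4a3 (-1.45) were called as well. Heat shock genes gave 1 call of 10, Hsp90ab1 (0.60). Over all genes 10.9% were lower and 9.63% higher. Signs of RNA quality and depth differed between the ages too. The mitochondrial share of UMIs in Exc_25 was 3.80%, 4.61% and 4.43% at P21 and 2.48% to 3.44% in the saline libraries, and the median UMIs per cell were 16893, 13503 and 10317 at P21 and 19919 to 24232 in the saline libraries, without overlap. Their part in the age changes was not tested.

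Of 82 respiratory chain genes tested, 18 were higher and 2 lower at P60, with a median of 0.40. The others did not pass the test. Among all tested genes 9.63% were higher and 10.9% lower, with a median of -0.02. Ndufv1, a subunit of complex I, was at 206, 201 and 183 CPM at P21 and at 306 to 449 CPM (median 403), by 1.13. Uqcrc1, a core subunit of complex III, was at 346, 288 and 244 CPM and at 422 to 573 CPM, by 0.95. The genes that fell were Cox5a and Uqcrfs1. Cox5a was at 1177, 462 and 367 CPM at P21 and at 107 to 344 CPM in the saline libraries, and at 810 and 704 CPM in the cocaine libraries 9 and 10, so that it followed the pattern of libraries given for Cck.

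Lists of synaptic signalling are given beside the shares of all tested genes, of which 9.63% were higher and 10.9% lower. For glutamate receptors 3 of 18 were lower and 0 higher: Grm5 (-0.63) and Grm7 (-0.66), metabotropic receptors, and Grin3a (-1.25), an NMDA receptor subunit of young neurons. Of 11 GABA-A subunits, Gabrg3 was lower (-0.72). Of 34 potassium channel genes 4 were lower, of 19 sodium and calcium channel genes 4, and of 10 neuromodulator receptors 2, the adrenergic receptors Adra1b (-1.45) and Adrb1 (-0.95), with 0 higher in each list. Among 23 vesicle release genes, Snap25 (0.67), Syt5 (0.84) and Rab3c (0.79) were higher and Unc13a (-0.75), a priming factor, and Rab3b (-0.92) lower. The peptide genes Cck, Sst and Adcyap1 were lower, of 8 tested. For Cck the saline libraries of 498 to 1841 CPM overlapped the P21 libraries.

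Chromatin genes that the study names gave 2 higher and 5 lower of 12 tested, beside 9.63% and 10.9% of all genes. Dnmt3a, a DNA methyltransferase active in young neurons, fell from 91.9, 124 and 154 CPM to 33.3 to 54.3 CPM (median 40.5), by 1.46 on the log2 scale, and Tet1, which oxidizes methylcytosine, fell by 1.84. Yeats4, Mbd3 and Ube2d3 were lower, and Prmt1, an arginine methyltransferase, and Hdac8, a histone deacetylase, were higher, each by 1.15. These genes were picked by the study on the same samples, so their direction is no independent evidence.

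Some markers of other layers and cell types moved with age as well, beside 9.63% of all tested genes called higher and 10.9% called lower. Other members of their lists are not named here. Rprm was at 349, 375 and 362 CPM at P21 and at 141 to 249 CPM (median 202) in the saline libraries, by -0.78, and Foxp2, a factor of corticothalamic neurons, changed by -1.60. Gnb4 (-1.56), Bcl11b (-0.95), a factor of extratelencephalic neurons, and Tbr1 (-0.76), a factor of cortical projection neurons, were lower. The peptide gene Sst was at 20.7, 15.0 and 18.3 CPM at P21 and at 0 to 13.5 CPM in the saline libraries (-1.31), and Aldoc, an enzyme of glycolysis listed as an astrocyte marker, at 72.4, 25.6 and 21.9 CPM and then 76.9 to 145 CPM (1.43). The part of these cell types in the other age changes was not tested.

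The number of called genes fell from 1824 to 518 when 16 cells were drawn from every library. Without 1 library it ranged from 1517 to 2098.

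Few genes passed a test for an age change that differed between Exc_25 and other excitatory cells. The age change in Exc_25 was compared with that in the other excitatory cells of the same libraries, as an interaction with the library as a block. Those cells were summed over all their clusters. A shift in the mix of clusters between the ages would therefore enter the difference, and its part was not tested. Of 11905 genes tested, the log2 age change (P60 minus P21) was higher in Exc_25 than in the other cells for 32 (0.269%). It was lower for 59 (0.496%), and 1897 had an unadjusted p below 0.05. Such a difference can come from a change in either group of cells. The count depended on the method and on single libraries: DESeq2 called 2 but gave no adjusted p to 9694 of the genes, among them the 10 named below, and called 26 when all genes were adjusted, all 26 among the 91 of edgeR. With that adjustment Gabrg1, Inadl, Penk and Rnf182 did not pass (DESeq2 adjusted p 0.0733 to 0.162). Leaving out libraries, edgeR called 196 without P21 library 1, 184 without library 2, 59 without P21 library 3 and 50 without library 12.

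Cd24a fell in both groups of cells but further in Exc_25. In the other excitatory cells it was at 45.4, 103 and 97.8 CPM at P21 and at 5.30 to 12.6 CPM (median 8.04) in the saline libraries, so that the difference in log2 change was -2.14 ± 0.33 (SE, edgeR adjusted p = 2.46e-05). Col6a1, a collagen VI chain, fell in Exc_25 from 11.1, 18.5 and 5.48 CPM to 0 to 2.60 CPM and was at 18.6, 19.5 and 21.5 CPM and then 10.3 to 21.7 CPM in the others, a difference of -2.48. Penk was in Exc_25 at 6.76, 4.41 and 3.66 CPM and then 0 to 3.15 CPM, levels that rest on few UMIs. In the other cells it was at 51.2, 36.8 and 44.2 CPM and then 16.5 to 62.4 CPM, a difference of -2.42. Inadl, a scaffold of cell junctions (-3.25), and Gabrg1, a GABA-A subunit (-2.68), were at no more than 5.48 CPM in any Exc_25 library of this comparison and rest on few UMIs.

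Tox2, a factor of the HMG box family, rose in Exc_25 from 10.3, 4.41 and 3.66 CPM to 20.05 to 27.2 CPM (median 21.4), while the other excitatory cells were at 10.4, 11.6 and 10.0 CPM and then 3.61 to 13.7 CPM, a difference of 1.68 ± 0.30 (SE, edgeR adjusted p = 3.49e-04). Ctsz rose from 15.1, 10.6 and 12.8 CPM to 27.0 to 39.0 CPM (median 37.9), against 27.1, 20.5 and 20.8 CPM and then 18.5 to 33.1 CPM, a difference of 1.24. For Tox2 and Ctsz the Exc_25 libraries of the ages did not overlap, as for 21.3% of all genes tested for age. The rule for named genes also asked for ratios to the other cells without overlap, which 5.75% of the genes tested here had. Nfkbia, the inhibitor of NF-kappaB, was in Exc_25 at 43.4, 42.3 and 34.7 CPM and then 33.3 to 53.6 CPM, while it was at 68.9, 67.3 and 65.7 CPM and then 36.2 to 43.3 CPM in the other cells, a difference of 0.89. Rnf182, a ubiquitin ligase, differed by 0.87 and Ly6a, a surface protein of endothelial and immune cells, by 2.18. Ly6a at P21 was higher in the other excitatory cells (16.4, 9.40 and 7.95 CPM) than in Exc_25 (4.38, 2.64 and 0.91 CPM).

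From the lists, the microglial genes C1qa and C1qb and the endothelial gene Ly6c1 were called, 2 of 5 and 1 of 4 tested. Their summed lists in the other excitatory cells reached 103 and 84.5 CPM at P21, against 34.2 and 26.7 CPM in Exc_25, and their part in other calls was not tested. Fezf2 differed by 0.75: in the other cells it was at 101, 64.6 and 59.9 CPM at P21 and at 18.5 to 49.1 CPM in the saline libraries, in Exc_25 at 81.6, 49.3 and 50.3 CPM and then at 33.9 to 64.7 CPM. Of all tested genes, 0.269% were called in the one direction and 0.496% in the other. Among peptides, Adcyap1 (-1.33), Cartpt (-3.06) and Penk, which did not pass by DESeq2, were called, 3 of 16. Among axon guidance genes, Sema5a, Unc5d, Unc5c and Slit2 were called, 4 of 36, and Grm7 (-0.71) was the single call among 19 glutamate receptor genes. Gnb4, a G protein subunit, fell further in Exc_25, by 1.01.

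Between cocaine and saline libraries, 0 genes were called in Exc_25 at maintenance, 3 at 48 h and 138 at 15 days. The last count depended on single libraries, most on 1 saline library. All 12 P60 libraries entered a single edgeR fit of 8944 genes with a mean for each group. At maintenance 0 genes were called (0%), 359 had an unadjusted p below 0.05, and DESeq2 called 0. Without library 2 the count was 2. With 2 libraries a group and 16 to 47 cells in each, the depth limits this comparison. On simulated counts for these libraries the test called 32.5% of genes changed by 1 on the log2 scale at maintenance, 55.0% at 48 h and 82.5% at 15 days. Among genes simulated without a change it called 4, 11 and 11 at these time points. Each gene was drawn on its own, without shifts shared by the genes of a library, so these counts do not cover calls from such shifts.

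At 48 h, 3 genes (0.0335%) were higher with cocaine and 0 (0%) lower, and 448 had an unadjusted p below 0.05. All 3 had libraries that did not overlap, as had 34.5% of all tested genes. Synpr was at 56.4 and 39.4 CPM in the cocaine libraries and at 11.9 and 10.7 CPM in the saline libraries, a log2 change of 2.08 ± 0.35 (SE, edgeR adjusted p = 8.88e-03). It was carried by few cells, with a UMI in 13 of 52 and 20 of 72 cocaine cells and in 2 of 31 and 3 of 53 saline cells, and in the other excitatory cells it was at 320 and 265 CPM with cocaine and at 271 and 272 CPM with saline. Rab3b, a small GTPase of vesicle release, was at 42.0 and 52.8 CPM with cocaine and at 8.49 and 19.5 CPM with saline, a change of 1.65. Nfib, a transcription factor of the NFI family, was at 154 and 125 CPM with cocaine and at 37.3 and 78.1 CPM with saline, a change of 1.18. In the other excitatory cells Rab3b was at 43.2 and 44.5 CPM with cocaine and at 20.2 and 29.99 CPM with saline. Nfib was there at 108 and 125 CPM against 95.7 and 94.7 CPM. Those cells are from the same libraries, and the share of all genes without overlap in them was not counted.

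The summed markers of microglia, endothelial cells and oligodendrocyte precursors were at no more than 24.6 CPM in any P60 library of Exc_25, and the 7 inhibitory markers summed to 0 to 23.3 CPM. At 48 h the mature oligodendrocyte markers summed to 144 and 140 CPM with cocaine and to 122 and 128 CPM with saline, and the astrocyte markers to 117 and 114 CPM against 86.6 and 109 CPM. The mitochondrial share was 2.59% and 2.72% with cocaine and 2.76% and 3.10% with saline. None of these 3 measures overlapped between the groups. The inhibitory sum was 2.05 and 13.3 CPM in the cocaine and 0 and 7.10 CPM in the saline libraries of 48 h, and 23.3, 8.23, 11.8 and 21.3 CPM in libraries 9 to 12 of 15 days. Lhx6 was the only marker of that list at 0 in all 12 libraries. The part of these cells and of RNA quality in the calls was not tested. These calls were sensitive to single libraries. DESeq2 called 2 genes, without Rab3b (DESeq2 adjusted p = 0.165). The edgeR count was 0 without library 5 (saline) or library 6 (cocaine) at 48 h, 1 without library 1 or 4, and 7 without library 2 or 3. For Synpr, the libraries at 15 days were at 49.0 and 43.9 CPM with cocaine and 36.8 and 37.2 CPM with saline, and Rab3b and Nfib overlapped there. Among the lists, the single calls at 48 h were Synpr, of the 3 claustrum-like markers, and Rab3b, of 23 vesicle release genes.

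**Figure D5:**
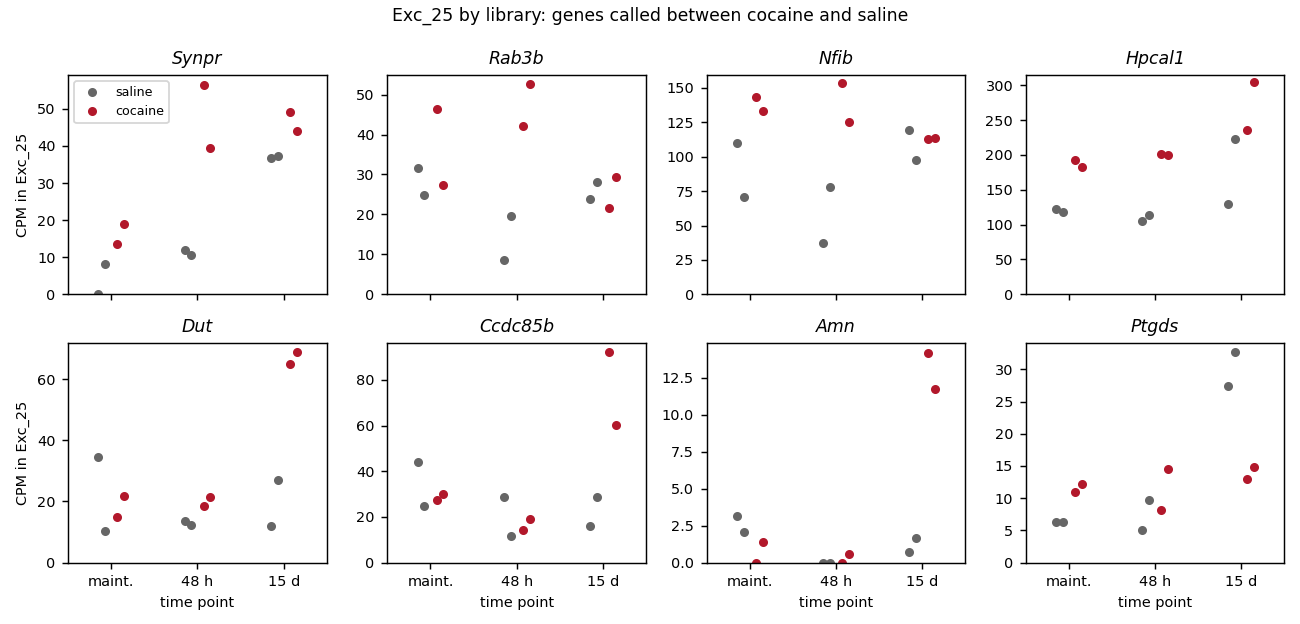
Level in Exc_25 (CPM) by time point for genes called between cocaine and saline, each point a saline (grey) or cocaine (red) library. Synpr at 48 h lies at 56.4 and 39.4 CPM with cocaine against 11.9 and 10.7 CPM with saline, and Dut at 15 days at 65.1 and 69.0 CPM against 12.0 and 27.0 CPM.

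After 15 days, 137 genes (1.53%) were higher with cocaine and 1 (0.0112%) lower, and 585 had an unadjusted p below 0.05. DESeq2 called 37 genes, 35 of them among the 138. The log2 changes of the 137 ranged from 0.60 to 3.599 with a median of 0.97. Dut, which keeps uracil out of DNA (chromosome 2: 125072926 to 125084344), was at 65.1 and 69.0 CPM with cocaine and at 12.0 and 27.0 CPM with saline, a change of 1.92 ± 0.24 (SE, edgeR adjusted p = 1.20e-05). Ccdc85b, a coiled-coil protein, was at 92.2 and 60.4 CPM against 15.8 and 28.6 CPM, by 1.92. Amn, a membrane protein of vitamin B12 uptake, had the largest change, 3.599, at 14.1 and 11.8 CPM against 0.71 and 1.64 CPM. Nudt8 (1.85), whose end overlaps Doc2g on the same strand so that their reads cannot be told apart, and Tmem203 (1.79) followed. Ptgds, prostaglandin D synthase, which is made by meningeal cells and oligodendrocytes, was lower, at 13.0 and 14.9 CPM against 27.4 and 32.7 CPM.

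The saline libraries of this time point differed from each other in the same genes. Of the 137, 132 (96.4%) were lower in library 11 than in library 12, against 44.5% of all tested genes. Without library 11 the count of calls was 7, of which 6 were among the 138, and without library 12 it was 277. Without the cocaine libraries 9 or 10 it was 36 or 83. Such a fit leaves 1 library in a group, here as at 48 h and maintenance, and assumes that it varies like the other groups. The same direction was present outside Exc_25: in the other excitatory cells of the same 4 libraries all 137 genes were higher with cocaine, by a median of 0.88 on the log2 scale, where 30.3% of all tested genes were higher and the median was -0.05. There too, all 137 were lower in library 11 than in library 12. For Dut these cells were at 62.8 and 55.7 CPM with cocaine and at 13.2 and 34.2 CPM with saline. Ccdc85b and Amn also stood apart in Exc_25 of P21 library 1, the P21 library with the most Cck. Ccdc85b was at 271, 26.4 and 21.03 CPM and Amn at 8.36, 0.88 and 2.74 CPM in P21 libraries 1, 2 and 3. Dut (73.2, 59.03 and 53.9 CPM), Nudt8 (10.7, 10.6 and 5.48 CPM) and Tmem203 (26.3, 28.2 and 16.5 CPM) lay closer together. How far the 137 genes follow the pattern of libraries given for Cck was not tested. Whether the 15-day libraries differ by preparation or by drug cannot be told apart with 2 libraries a group.

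Of the lists, 5 members were called at 15 days, where 1.53% of all tested genes were called higher: Uqcrfs1 (1.00) of 82 respiratory chain genes, Yeats4 (1.18) of 11 chromatin genes, Grin2a (1.05), an NMDA receptor subunit, of 18 glutamate receptors, Rab3a (0.70) of 23 vesicle release genes and Fezf2 (0.68) of 2 extratelencephalic markers. Rab3a was at 2715 and 2771 CPM with cocaine and at 1384 and 2095 CPM with saline. The immediate early genes had 0 calls of 16 and a median of -0.05, and the layer 5 intratelencephalic markers 0 of 6 and a median of 0.07. Over all genes the median was -0.003.

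Over all time points 3 genes (0.0335%) were higher with cocaine and 0 (0%) lower, and 596 had an unadjusted p below 0.05. They were Synpr (1.38), Nfib (0.64) and Hpcal1 (0.73), a neuronal calcium sensor, which was named after its values were seen. Hpcal1 was at 105 to 129 CPM in 5 saline libraries and at 222 CPM in library 12, and at 183 to 305 CPM in the cocaine libraries. In the other excitatory cells Hpcal1 was at 47.1 to 68.2 CPM in the same 5 saline libraries and at 128 CPM in library 12. With cocaine it was at 72.7 to 133 CPM in those cells. The count ranged from 0 (without library 1, 5 or 10) to 46 (without library 12), and was 1 without library 3, 4, 6, 7 or 9. No gene was called for a difference in the cocaine effect between time points, with 266 (48 h minus maintenance), 444 (15 days minus maintenance) and 438 (15 days minus 48 h) genes at an unadjusted p below 0.05 by edgeR. Without library 12 there were 43 calls for 15 days minus maintenance and 55 for 15 days minus 48 h, and without library 2 or 3 there were 2 for 48 h minus maintenance. The effects at these time points were therefore not shown to differ.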

How the data were processed

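The authors made 10x libraries from dissociated PFC, aligned reads to mm9 (NCBIM37) and deposited raw UMI counts of 26145 genes per cell, made with Cell Ranger and, per the labels' processing notes, Seurat 2.1.0. The deposited cell table, whose mitochondrial share per cell is a fraction, gave class and cluster. The methods describe removing likely doublets by an upper limit on genes per cell and by hand. Deposited Exc_25 cells lie above that limit too, and no doublet caller was run here. Groups come from the labels. UMIs were summed over Exc_25 cells per library (at least 10 cells), without 13 mitochondrial and 143 ribosomal protein genes, over 25989 genes, and 304 repeated symbol rows were kept apart.

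Sums were tested with edgeR 4.0.16 in R 4.3.3 (filterByExpr, TMM, robust quasi-likelihood, Benjamini-Hochberg adjustment), shares and quality by exact permutation with scipy 1.17.1. DESeq2 1.42.0 was the alternative tool. Ratios are log2(CPM + 1). P60 saline was compared with P21 over 6 and 3 libraries, cocaine with saline over all 12. On simulated counts, 75.5% of 200 genes changed by 1 (log2) were called for age (8868 genes) and 69.0% for age by cluster (11905 genes). Unchanged genes called were 13 for age and 9 for age by cluster. The simulated counts hold no shift shared by the genes of a library. Libraries are the replicates. No label names the animals, so p-values measure the spread between libraries. Positions are from GENCODE for NCBIM37.

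The members, gene lists and tests were chosen with earlier results of these data known. Named genes were the list members, the 15 highest and 10 lowest ratios, the 5 highest and 5 lowest against each of the 3 nearest clusters, and the 10 (age) or 5 (other comparisons) largest called changes each way without overlap between groups. Alternatives were DESeq2, its size factors, no low-count filter, no fold cutoff, all P60 libraries, 16 cells per library, at least 30 cells, and leaving out each library. Added after the data were seen were cells of the excitatory class alone for the interaction no fold cutoff, and, for the interaction and 15 days, DESeq2 without independent filtering. Some list members are not reported here.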

Additional observations from a re-analysis of the deposited data

Results flagged for a closer look

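Among 23 groups of 6 saline libraries checked for a sample far from the others, Ass1 in library 2 was marked, at 53.6 CPM where the other saline P60 libraries lie close together. Chance marks about 1 in 20 such groups. Library 2 holds 16 Exc_25 cells, the fewest of all.

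The age change differed between Exc_25 and the other excitatory cells, by the interaction test of edgeR, for 10 genes named by rule. The difference (log2, Exc_25 minus the others) was 2.18 for Ly6a, 1.68 for Tox2, 1.24 for Ctsz, 0.89 for Nfkbia and 0.87 for Rnf182. It was -3.25 for Inadl, -2.68 for Gabrg1, -2.48 for Col6a1, -2.42 for Penk and -2.14 for Cd24a.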

How the results depend on the processing

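Counts of called genes changed with the setting as follows. For age, 16 cells per library gave 518 genes, of which 420 were among the 1824. Counts without 1 library (1517 to 2098) and by DESeq2 (1565) stayed within 1.5 times of 1824. For age by cluster, DESeq2 called 2 (26 without its independent filtering, which left 9694 of 11905 genes with no adjusted p), no fold cutoff (added after the data were seen) 229, and leaving out 1 library 50 to 196. For cocaine at maintenance, leaving out 1 library gave 0 to 2. At 48 h, DESeq2 called 2, no low-count filter gave 8, at least 30 cells 6 and leaving out 1 library 0 to 7. At 15 days, DESeq2 called 37 (34 without that filtering) and leaving out 1 library gave 7 to 277. Over all time points, no filter gave 5 and leaving out 1 library 0 to 46. For the differences between time points, leaving out 1 library gave 0 to 2 (48 h minus maintenance), 0 to 43 (15 days minus maintenance) and 0 to 55 (15 days minus 48 h), and no filter gave 14 for the last. The cause of these moves was not tested. Cells of the excitatory class alone, added after the data were seen, gave 1765 genes for age and 124 for age by cluster.

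The share of Exc_25 in P60 saline minus P21 changed sign with all P60 libraries (0.471) and without single libraries, from -0.679 to 0.209 (above 0 at 0.0327, 0.209, 0.125, 0.0849 and 0.134). The ribosomal protein difference passed the test without library 5 (-0.0670), with a range of -0.0670 to -0.0346, and was -0.0120 as a median over cells. Of the named genes' values for age under the alternatives, 1456 kept their direction and their side of the threshold and 203 kept only the direction. For age by cluster 121 kept both and 19 the direction alone, leaving out the filtered DESeq2 fit, which gave none of the 10 genes an adjusted p. For 15 days these were 96 and 8, and for 48 h 37 and 14. A minimum of 30 cells could not be run at maintenance or over all time points, since it leaves out both saline maintenance libraries. Of the leading genes' level ratios, 84 values moved by less than the SD over libraries and 16, for 13 genes, by more, with no change of sign. The moved values after thinning were 0.83 for Scube1, 2.33 for Tmem91, 2.71 for S100b and -6.09 for Tshz2. With other clusters weighted equally, Il1rapl2 was at 2.00, and the remaining moves were those of the P21 libraries alone. Between groups of libraries, no paired analysis was possible because the labels give no replicate numbers shared by the groups. Depth limits the maintenance and 48 h comparisons, where some libraries hold under 40 Exc_25 cells.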
